A study of Mus musculus with 6 samples.

Results

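The BCL2 family and apoptosis initiators described here are 10 genes: Bcl2, Bcl2l1, Mcl1, Bbc3, Pmaip1, Bcl2l11, Bid, Bak1, Casp8 and Endog. They were found by symbol among probe sets annotated with exactly 1 gene, which gave 30 of 45037 probe sets and 10 of 18193 genes. The brightest probe set (by its mean level on the 6 arrays) stands for each gene, and the others are given beside it. None of the 10 genes passed the test when the Atoh8 hairpin was compared with the scrambled one. Bbc3 had the smallest adjusted p, and 7 of the 10 genes had groups of arrays that did not overlap, against 24.0% of all genes. Of these 7, Bcl2, Mcl1, Bbc3, Bid and Bak1 read higher in shAtoh8 (12.6% of all genes did so without overlap), and Casp8 and Endog read lower (11.4%). The 10 genes were chosen with earlier results of these data known, so such shares describe them and do not test them.

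The cells were mPAC L20, a mouse pancreatic duct line, and in every sample an adenovirus with a CMV promoter expressed Neurog3, the factor that starts endocrine differentiation. The shAtoh8 group (3 arrays) first received an adenovirus whose hairpin targets Atoh8 (a transcription factor of the basic helix-loop-helix family), and the shControl group (3 arrays) first received one with a scrambled hairpin. Each virus was given at a multiplicity of infection of 40, so both groups had been infected with 2 viruses, and no uninfected sample and none without Neurog3 was analysed here. All arrays shared 250000 seeded cells, 4 h with the hairpin virus, 1.5 h with the Neurog3 virus and 44 to 46 h of culture. Replicates were 3 independent experiments, per the labels, all in 1 cell line.

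Mitochondrial apoptosis is set by contacts between proteins of the BCL2 family. Anti-apoptotic members hold the effectors in check at the outer mitochondrial membrane, BH3-only members released or induced by stress relieve that block, and the effectors then form pores through which cytochrome c and other proteins leave. Death receptors at the cell surface start a second route by activating caspase-8, which can cleave Bid and so join the mitochondrial route. Much of this control acts on proteins, by cleavage, binding and turnover, and an array reads mRNA alone.

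Values are log2 signals, and array medians lay between 5.49 and 5.56. Atoh8, the target of the hairpin, read 7.83, 7.90 and 7.37 in shAtoh8 replicates 1, 2 and 3, against 8.75, 8.29 and 7.52 in shControl. It was lower within all 3 replicate numbers, but the difference did not pass (log2 fold change -0.49 ± 0.30 SE, limma adjusted p = 0.573, and 0.157 with the replicate number as a block). It was -0.21 without shControl replicate 1 and -0.82 without shControl replicate 3. The 2 Neurog3 probe sets went opposite ways. One read 6.78, 6.06 and 5.33 in shAtoh8, against 7.45, 6.64 and 5.79 in shControl (-0.57 ± 0.48 SE, adjusted p = 0.706), and was lower with the block (0.0330). The other read 0.18 ± 0.17 (0.751, and 0.400 with the block), so equal Neurog3 in both groups is not shown, and its part in the results below was not tested. Mean levels of the 2 sets were 6.34 and 6.33, below the median gene level. Whether they read the Neurog3 of the virus was not tested. Of 8 measured duct epithelium markers 7 lay above the median gene level, with Krt8, Krt18 and Krt19 between 13.4 and 13.9, while Cftr was low at 3.71. Epcam read 7.72, 7.31 and 6.90 in shAtoh8, against 8.11, 8.09 and 7.93 in shControl (-0.73 ± 0.19, adjusted p = 0.145), and was lower with the block (0.0461). Krt7 read -0.25 without overlap of the groups, and the median over the 8 markers was -0.06; the part of these differences in the results below was not tested. Mean levels ran from 3.65 (Ptprc) to 6.63 (Cd68) over 4 leukocyte markers, from 3.71 (Pecam1) to 5.45 (Kdr) over 3 endothelial ones, from 4.79 (Pdgfrb) to 6.89 (Pdgfra) over 5 fibroblast ones and from 3.95 (Ptf1a) to 8.63 (Cela1) over 4 acinar ones. Pdgfra and Cela1 were above the median gene level, and none of these 16 markers passed with or without the block. The 3'-to-5' gap of the actin control probe sets, a sign of RNA quality, was 0.354 on the array of shAtoh8 replicate 2 and 0.107 to 0.202 on the other arrays. The Gapdh control set did not single out that array (-0.0509, within the -0.143 to -0.0495 of the others).

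Promoter sequence is shown for 4 members whose groups did not overlap, Bbc3 and Bid on the higher side and Casp8 and Endog on the lower side, because both Atoh8 and Neurog3 belong to a protein family that binds E-box letters, CANNTG. These 4 were picked after their values were seen. Each line gives 250 bases before to 50 after an annotated start, from RefSeq (GRCm38.p6), and capitals mark CANNTG, which reads the same on both strands and contains the narrower CAGATG and CAGCTG. The Casp8 window is chr1:58802252-58802551 on the plus strand, the Endog window chr2:30171274-30171573 (plus), the Bbc3 window chr7:16309333-16309632 (plus, the most upstream of 3 listed starts) and the Bid window chr6:120916775-120917074 (minus).
Bbc3: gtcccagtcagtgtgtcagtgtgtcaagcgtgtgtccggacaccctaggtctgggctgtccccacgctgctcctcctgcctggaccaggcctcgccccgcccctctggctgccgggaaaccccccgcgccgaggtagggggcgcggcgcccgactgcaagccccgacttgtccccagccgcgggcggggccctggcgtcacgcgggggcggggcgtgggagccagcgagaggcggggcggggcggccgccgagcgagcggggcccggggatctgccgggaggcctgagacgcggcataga
Bid: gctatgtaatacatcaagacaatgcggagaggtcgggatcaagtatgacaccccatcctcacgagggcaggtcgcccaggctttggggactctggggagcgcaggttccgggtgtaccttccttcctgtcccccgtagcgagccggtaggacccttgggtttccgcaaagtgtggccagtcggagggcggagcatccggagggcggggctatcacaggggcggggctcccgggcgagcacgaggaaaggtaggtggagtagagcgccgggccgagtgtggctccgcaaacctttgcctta
Casp8: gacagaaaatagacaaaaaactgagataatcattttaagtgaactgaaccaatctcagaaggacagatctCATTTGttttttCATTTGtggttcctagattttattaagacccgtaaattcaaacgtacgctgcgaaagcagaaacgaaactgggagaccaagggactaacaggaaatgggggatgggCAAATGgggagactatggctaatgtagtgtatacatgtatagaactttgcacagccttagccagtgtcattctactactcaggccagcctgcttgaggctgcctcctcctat
Endog: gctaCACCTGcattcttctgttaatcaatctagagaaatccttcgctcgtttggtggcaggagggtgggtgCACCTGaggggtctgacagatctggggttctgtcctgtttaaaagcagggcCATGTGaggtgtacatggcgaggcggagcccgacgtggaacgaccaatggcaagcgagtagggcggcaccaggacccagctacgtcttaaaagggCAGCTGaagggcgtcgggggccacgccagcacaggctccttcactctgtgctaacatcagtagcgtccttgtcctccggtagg
The Bbc3 and Bid windows shown held 0 matches each, the Casp8 window 3 and the Endog window 4. The other 2 Bbc3 windows held 2 each. In all, 9 of 14 windows of 9 members held CANNTG, against 72.3% of 32851 promoter windows in the same table. CAGATG, or CATCTG on the other strand, stood in 1 member window (17.2% of all windows) and CAGCTG in 2 (16.3%). The 10-base p53 half-site, searched on both strands, was in 0 member windows and in 8.36% of all windows. Pmaip1 was left out with its chromosome and was not searched. GC content was 76.0% in the Bbc3 window, 63.3% in Bid, 57.7% in Endog and 42.0% in Casp8, against a median of 52.7%. A match of letters is a description and not a binding site.

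Whether the 2 hairpins differ in these genes is the question of the comparison. By limma's moderated test with Benjamini-Hochberg adjustment over all 45037 probe sets, 0 of the 10 genes passed an adjusted p of 0.05, where 1.15% of all genes passed, and 0 passed with the replicate number as a block, where 4.67% of all genes passed. At an unadjusted p under 0.05 without the block, 7 of the 10 passed, against 17.5% of all genes. With the block 7 passed too, but the share of all genes for that count was not computed. The count with the block therefore cannot be read against the 17.5% found without it. Of the 30 probe sets, 0 passed in limma, where 0.802% of all probe sets passed, and 14 had groups that did not overlap, against 19.4% of all probe sets. The same 7 had groups that did not overlap, 5 higher and 2 lower, against 24.0% of all genes (12.6% higher, 11.4% lower). The median absolute log2 fold change of the 10 genes was 0.30, against 0.11 over all genes, and their median was 0.19, against 0.01. Differences were small in size: the widest was that of Bcl2, 1.38-fold.

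**Figure D1:**
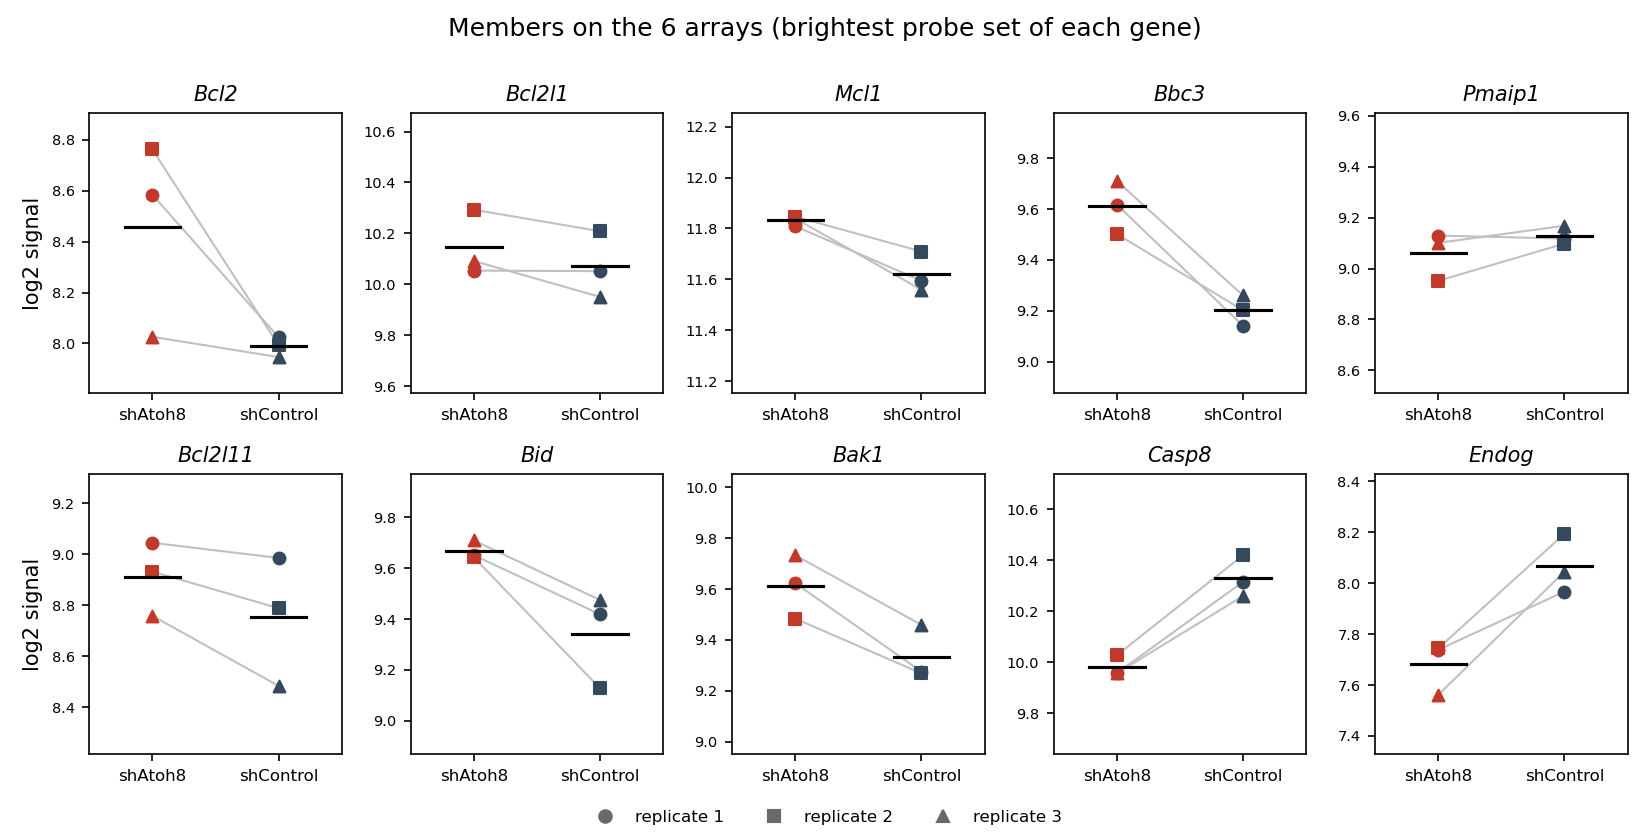
Log2 signal (y axis, each panel spanning 1.1 units) of the brightest probe set of each of the 10 genes on the 3 shAtoh8 arrays (left, red) and the 3 shControl arrays (right, dark); symbols are replicate numbers, grey lines join arrays of 1 number and black bars are means. Casp8 and Endog lie lower on all 3 shAtoh8 arrays, Bbc3, Bid, Mcl1 and Bak1 lie higher, and Bcl2 replicate 3 nearly touches the shControl arrays.

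Among the anti-apoptotic genes, Bcl2, the founding member, which binds BH3-only proteins and effectors at the mitochondrial and endoplasmic reticulum membranes, read 8.58, 8.76 and 8.03 in shAtoh8 replicates 1, 2 and 3, against 8.02, 7.99 and 7.95 in shControl. The shControl arrays were close together, and shAtoh8 replicate 3 exceeded the highest of them by 0.0016, so the separation there was almost nil. Mean levels were 8.46 ± 0.38 in shAtoh8 and 7.99 ± 0.04 in shControl (SD, n = 3 each), which gave a log2 fold change of 0.47 ± 0.18 (SE; limma adjusted p = 0.301, and 0.145 with the replicate block). Within replicate numbers the log2 difference was 0.56, 0.77 and 0.08. The log2 fold change was 0.32 without shAtoh8 replicate 2, the array with the wider actin gap, and 0.69 without shAtoh8 replicate 3. Any part of RNA quality in these values was not tested. All 5 probe sets of Bcl2 had a positive fold change, from 0.15 to 0.54, and 4 had groups that did not overlap. On the third brightest of them the 3 differences were nearer to each other, at 0.35, 0.39 and 0.55 (log2 fold change 0.43 ± 0.12 SE, limma adjusted p = 0.170, and 0.0560 with the block). The dimmest set, with means of 3.93 in shAtoh8 and 3.79 in shControl, read 0.15 ± 0.11 and its groups overlapped.

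Mcl1, a short-lived anti-apoptotic protein that restrains Bak1, read 11.81, 11.85 and 11.84 in shAtoh8, against 11.59, 11.71 and 11.56 in shControl. The shAtoh8 arrays had the smallest spread of any member (SD 0.02) and lay above all shControl arrays by at least 0.0994. The log2 fold change was 0.21 ± 0.08 (SE), or 1.16-fold (limma adjusted p = 0.291, and 0.246 with the block). All 6 probe sets of Mcl1 were positive, from 0.19 to 0.29, with non-overlapping groups on 2 of them.

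Bcl2l1, which encodes the anti-apoptotic Bcl-xL and, by splicing, the pro-apoptotic Bcl-xS, showed no separation. It read 10.05, 10.29 and 10.09 in shAtoh8, against 10.05, 10.21 and 9.95 in shControl, and replicate 2 was the highest array in each group. The log2 fold change was 0.08 ± 0.11 (SE, limma adjusted p = 0.849), with a 95% interval of -0.17 to 0.32. Its 4 probe sets disagreed in sign, 2 positive and 2 negative, from -0.16 to 0.13, and the groups overlapped on each. On the 2 negative sets shAtoh8 replicate 2, the array with the wider actin gap, was the lowest of the 6 arrays. Without it their log2 fold changes of -0.16 and -0.16 became -0.02 and 0.11. Those of the 2 positive sets, 0.08 and 0.13, became 0.0024 and 0.015. Any part of RNA quality in these shifts was not tested, and the Gapdh control set did not single out shAtoh8 replicate 2. Which splice form each set reads was not analysed here.

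**Figure D2:**
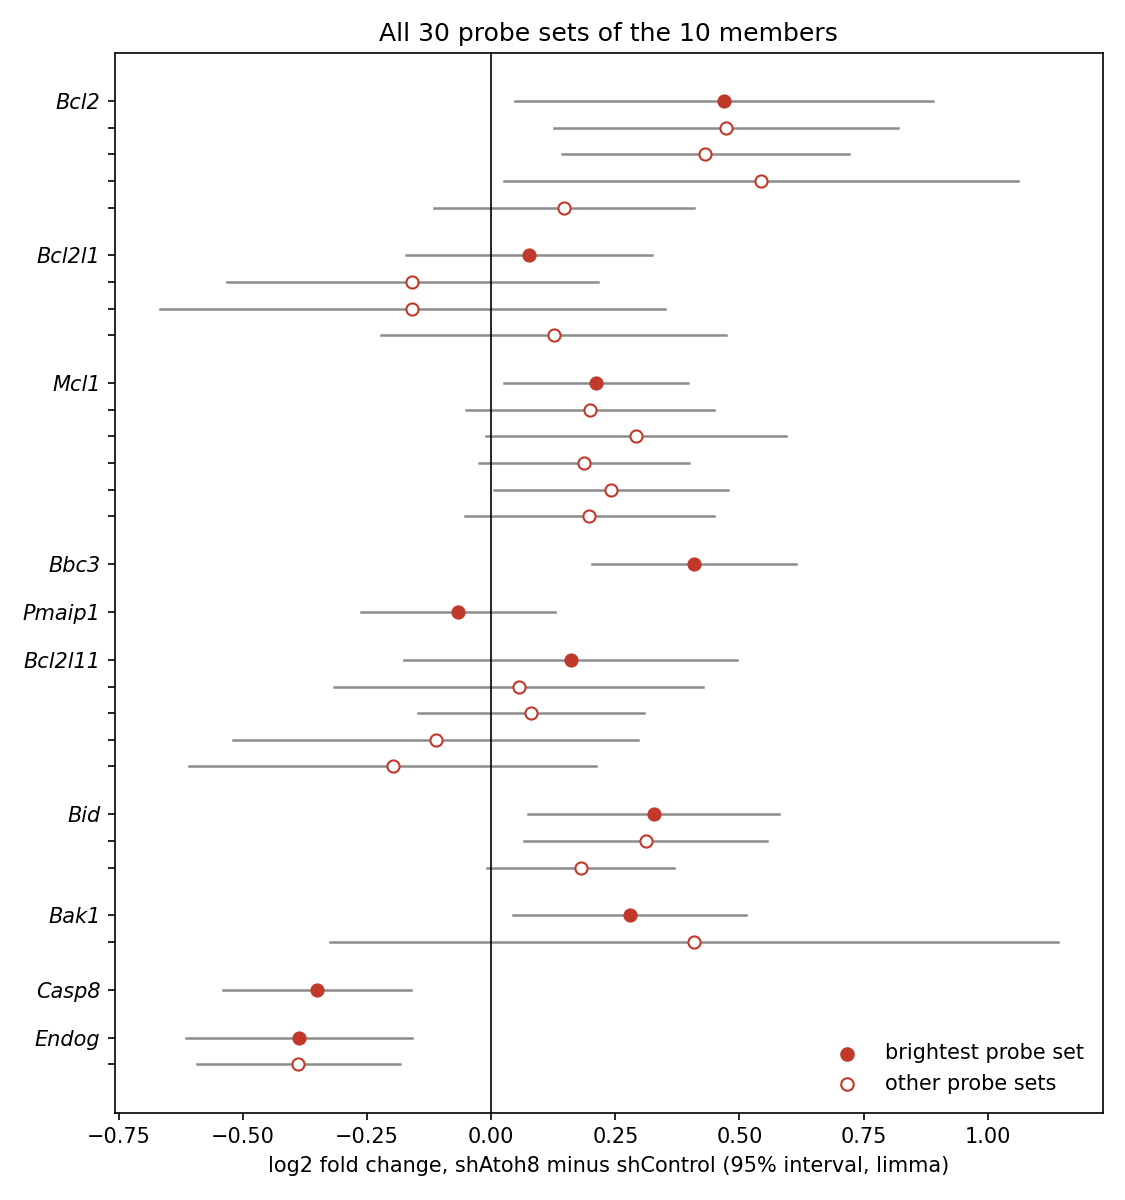
Log2 fold change of shAtoh8 minus shControl (x axis) with its 95% interval from limma for all 30 probe sets, ordered by gene and by brightness from the top; filled points are the brightest set of a gene. All sets of Bcl2, Mcl1, Bid and Bak1 lie right of 0 and both Endog sets left of it, while Bcl2l1 and Bcl2l11 have sets on both sides.

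The BH3-only genes differed among themselves. Bbc3, which encodes PUMA, a p53-induced activator that can bind every anti-apoptotic member, read 9.62, 9.50 and 9.71 in shAtoh8, against 9.14, 9.20 and 9.26 in shControl. The lowest shAtoh8 array was 0.242 above the highest shControl array, the widest gap among the members that read higher. Mean levels were 9.61 ± 0.10 in shAtoh8 and 9.20 ± 0.06 in shControl (SD, n = 3 each), and the fold was 1.33 (0.41 ± 0.09 SE on the log2 scale). It missed the threshold in limma (adjusted p = 0.0899, and 0.0611 with the block), and its log2 differences within replicate numbers were 0.48, 0.30 and 0.45. Bbc3 has 1 probe set, so no other set can be put beside it.

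Bid, the BH3-only protein that caspase-8 cleaves, read 9.65, 9.64 and 9.71 in shAtoh8, against 9.42, 9.13 and 9.47 in shControl. The shAtoh8 arrays lay within a narrow band, and shControl replicate 2 was the lowest of all. The log2 fold change was 0.33 ± 0.11 (SE), or 1.25-fold (limma adjusted p = 0.227, and 0.134 with the block). All 3 probe sets were positive, from 0.18 to 0.33, and on all 3 the groups did not overlap.

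Bcl2l11, which encodes BIM, a potent activator held in check by ERK signalling, read 9.05, 8.93 and 8.76 in shAtoh8, against 8.99, 8.79 and 8.48 in shControl. Replicate numbers ran in the same order in both groups, and each shAtoh8 array was above the shControl array of its own number, by 0.06, 0.14 and 0.28, although the groups overlapped. The log2 fold change was 0.16 ± 0.14 (SE, limma adjusted p = 0.734, and 0.410 with the block), and it was 0.025 without shControl replicate 3 and 0.28 without shControl replicate 1. Of its 5 probe sets 3 were positive and 2 negative, from -0.20 to 0.16. On 3 of the dimmer sets shAtoh8 replicate 2 was the lowest array, and without it the values of 0.05, -0.11 and -0.20 became 0.20, 0.07 and -0.04.

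Pmaip1, which encodes NOXA, a BH3-only protein that favours Mcl1 as its partner, read 9.13, 8.95 and 9.10 in shAtoh8, against 9.12, 9.10 and 9.17 in shControl. The arrays overlapped, and the sign differed between replicate numbers (0.01, -0.15 and -0.07). Its log2 fold change of -0.07 ± 0.08 (SE, limma adjusted p = 0.824) had a 95% interval of -0.26 to 0.13. Bbc3 and Pmaip1 are both textbook p53 targets. The interval of Bbc3, not adjusted, was 0.20 to 0.61, but neither gene passed. The difference between the genes was not tested, nor was any part of p53.

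Bak1, the effector that forms pores in the outer mitochondrial membrane, read 9.62, 9.48 and 9.73 in shAtoh8, against 9.28, 9.27 and 9.46 in shControl. The groups were separated by 0.0249, since shControl replicate 3 came close to shAtoh8 replicate 2. The log2 fold change was 0.28 ± 0.10 (SE), or 1.21-fold (limma adjusted p = 0.270, and 0.136 with the block), and the log2 differences within replicate numbers were 0.35, 0.22 and 0.27. Its other probe set read 0.41 ± 0.31 (SE) with overlapping groups: it differed more between replicate numbers than between hairpins, with 8.13 in shAtoh8 and 7.41 in shControl for replicate 3, and 6.97 in shAtoh8 and 6.67 in shControl for replicate 1.

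Casp8, the initiator caspase of death receptor signalling, was on the lower side. It read 9.96, 10.03 and 9.96 in shAtoh8, against 10.32, 10.42 and 10.26 in shControl. All shAtoh8 arrays were below all shControl arrays, with a distance of 0.233 between the nearest of them. Mean levels were 9.98 ± 0.04 in shAtoh8 and 10.33 ± 0.08 in shControl (SD, n = 3 each). Casp8 was thus 1.28-fold lower, at -0.35 ± 0.08 (SE) on the log2 scale (limma adjusted p = 0.106, and 0.0751 with the block). Within replicate numbers it was -0.36, -0.39 and -0.30. It has 1 probe set.

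Endog, a nuclease that resides in mitochondria and can cut nuclear DNA after its release, read 7.74, 7.74 and 7.56 in shAtoh8, against 7.97, 8.19 and 8.05 in shControl. The groups were 0.223 apart. Endog was 1.31-fold lower, at -0.39 ± 0.10 (SE) on the log2 scale (limma adjusted p = 0.128, and 0.0804 with the block). Its second probe set gave almost the same size, -0.39 ± 0.09 (SE; limma adjusted p = 0.0997, and 0.0576 under the block), and its log2 differences within replicate numbers were -0.39, -0.39 and -0.39, the most even of the 30 probe sets.

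**Figure D3:**
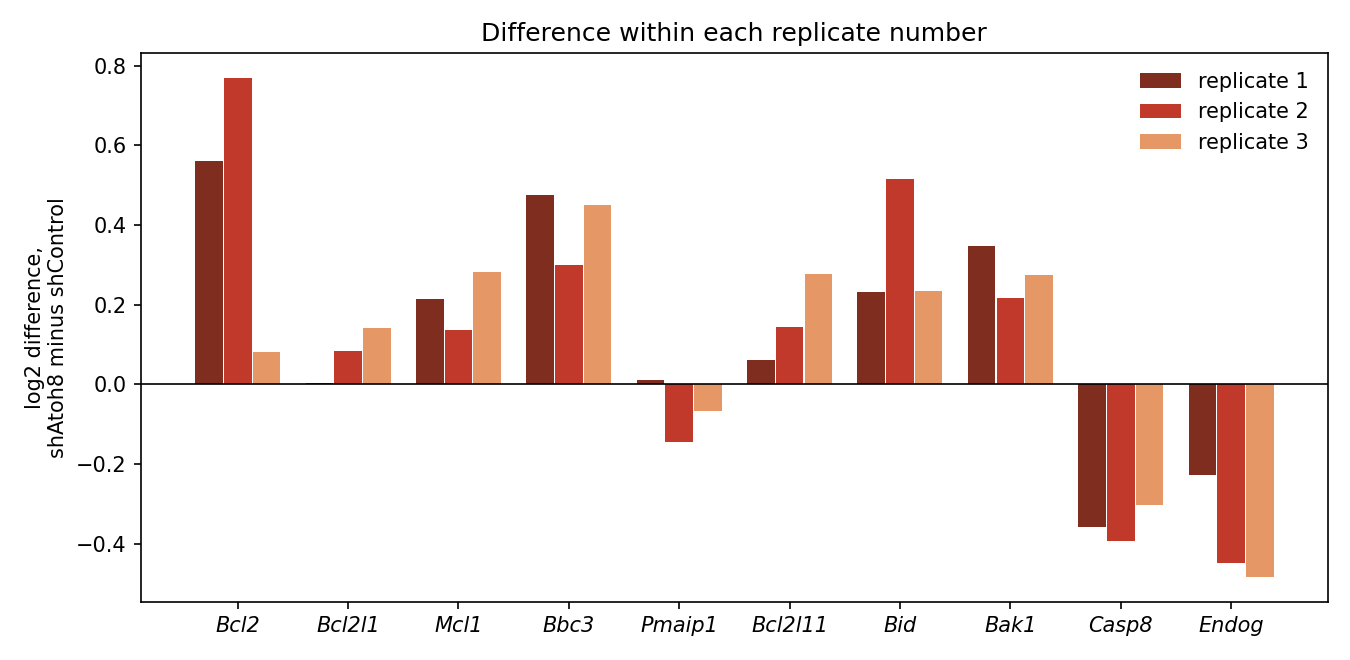
Log2 difference of shAtoh8 minus shControl within each replicate number (bars, y axis) for the brightest probe set of each of the 10 genes. Bars of 9 genes point the same way in all 3 replicate numbers and those of Pmaip1 do not. The Bcl2 bar of replicate 3 (0.08) is much shorter than those of replicates 1 and 2, and the Bcl2l1 value of replicate 1 (0.0022) is almost nil.

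Compared within replicate numbers, 9 of the 10 genes had the same sign in all 3, against 45.5% of all genes, and Pmaip1 was the exception. Bcl2l1 counts among the 9 with log2 differences of 0.0022, 0.08 and 0.14, so its sign in replicate 1 rests on almost nothing. Replicates 1, 2 and 3 had 8, 7 and 7 of the genes higher in shAtoh8, with median log2 differences of 0.14, 0.14 and 0.19. Bcl2 had the widest positive difference in replicates 1 and 2 and Bbc3 in replicate 3. Casp8 had the most negative one in replicate 1 and Endog in replicates 2 and 3. By role, the 3 anti-apoptotic genes had a median log2 fold change of 0.21 and all were positive, and the 4 BH3-only genes had a median of 0.24 with 3 positive. The medians of both roles were positive, and neither was tested. Of the members that promote apoptosis, Pmaip1, Casp8 and Endog had negative values.

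Other genes of the same pathway were taken from 10 lists by role, of which 54 of 63 genes outside the 10 members were analysed here. Of these, 1 fell in limma (1.15% of all genes passed in either direction) and 0 rose, and with the replicate block 3 fell and 0 rose (2.75% of all genes fell and 1.92% rose). At an unadjusted p under 0.05, 11 of the 54 passed, where 17.5% of all genes did, so this share was near that of all genes. Their median log2 fold change was 0.01, as over all genes, with 32 positive and 22 negative. The groups did not overlap for 9 on the higher and 5 on the lower side (12.6% and 11.4% of all genes).

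Birc3, the inhibitor of apoptosis protein cIAP2, a ubiquitin ligase in TNF receptor signalling, was the gene that fell. It read 8.10, 8.42 and 8.18 in shAtoh8, against 8.86, 9.13 and 9.17 in shControl, a log2 fold change of -0.82 ± 0.12 (SE; limma adjusted p = 0.0414, and 0.0215 with the block). The groups were well apart, but its other, dim probe set had the opposite sign (0.12 ± 0.09, adjusted p = 0.688), and none of the 54 genes passed when any array other than shAtoh8 replicate 2 was left out, or when the probe sets of a gene were averaged. Xiap (0.07) and Birc2 (0.08) of the same list did not pass, and the 6 genes of the list had a median of 0.03.

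With the replicate block Bnip3 and Casp12 also fell. Bnip3, a mitochondrial protein of mitophagy and a hypoxia target, read 11.39, 12.18 and 11.05 in shAtoh8, against 12.05, 12.56 and 11.97 in shControl. Replicate 2 was high in both groups, so the groups overlapped while each pair was lower (log2 fold change -0.65 ± 0.29 SE; limma adjusted p = 0.388, and 0.0476 with the block). Casp12, a caspase of the endoplasmic reticulum, read 6.68, 6.78 and 7.03 in shAtoh8, against 7.32, 7.18 and 7.53 in shControl (-0.51 ± 0.13; 0.132, and 0.0409 with the block), and its other probe set was negative as well (-0.34).

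**Figure D4:**
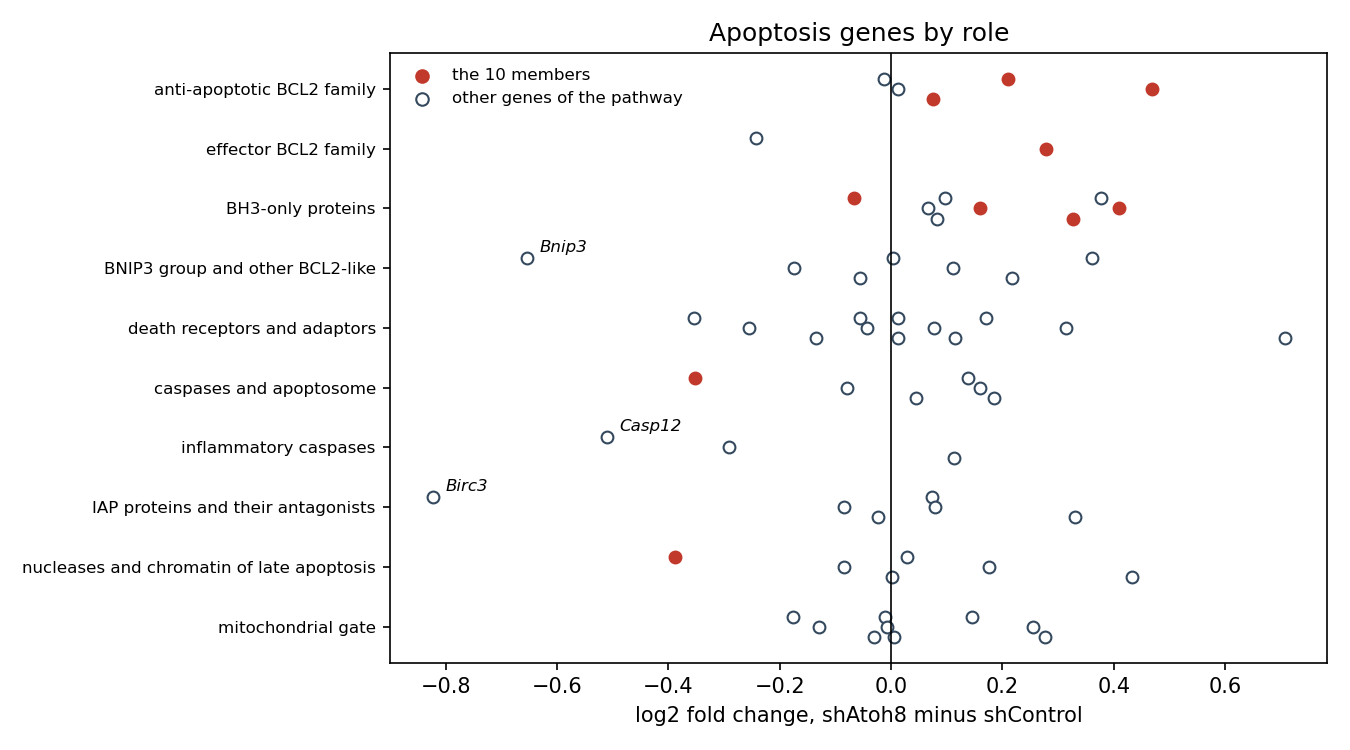
Log2 fold change of shAtoh8 minus shControl (x axis) for the brightest probe set of each analysed apoptosis gene, in rows by role; filled points are the 10 members, open points the other 54 genes, and names mark genes past the threshold with the replicate block. Birc3, Bnip3 and Casp12 are the named points, all left of 0, and most open points lie near 0.

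Death receptors and their adaptors had 12 measured genes with a median of 0.01 and none past the threshold in limma (0 with or without the block, 4 at an unadjusted p under 0.05, where 17.5% of all genes passed). Fas, the receptor that recruits caspase-8 through FADD, read 6.92, 6.79 and 7.30 in shAtoh8, against 6.29, 6.61 and 6.00 in shControl (log2 fold change 0.71 ± 0.19 SE, adjusted p = 0.143). Its groups did not overlap, but the differences within replicate numbers were uneven (0.64, 0.19 and 1.30). Tnfrsf21, the death receptor DR6, read -0.35 ± 0.09 (adjusted p = 0.142, and 0.0803 with the block).

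Among the remaining BCL2 relatives, Bmf, a BH3-only protein tied to the cytoskeleton, read 0.38 ± 0.12 (SE, limma adjusted p = 0.206), although 1 of its 3 probe sets was slightly negative (-0.03). Hrk, another BH3-only gene, read 0.10 ± 0.09 (0.750). Bok, an effector-like relative of Bak1, read -0.24 ± 0.10 (0.356), opposite in sign to Bak1. Bcl2l2, the anti-apoptotic Bcl-w, read 0.01 ± 0.19 (0.990), and Bcl2l10 -0.01 ± 0.09 (0.977). All 8 BH3-only genes were measured, 7 had a positive value on the brightest probe set, and the median of the 8 was 0.13. Bad, Bik, Hrk, Bmf and Bcl2l11 had probe sets of both signs.

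The caspase and apoptosome list had 6 measured genes and a median of 0.09. By brightest probe sets, Casp8 was the one whose groups did not overlap (24.0% of all genes had such groups). Casp9, the initiator caspase of the apoptosome, read 0.14 ± 0.09 (SE, limma adjusted p = 0.582), and Cycs, cytochrome c, 0.18 ± 0.12 (0.588). All 3 probe sets of Casp9 were positive. Its second brightest read 0.34 ± 0.08 (SE, limma adjusted p = 0.124), with groups that did not overlap. Of the nucleases, Dffb, the caspase-activated DNase, read 0.43 ± 0.13 (0.197) and its inhibitor Dffa 0.18 ± 0.12 (0.603), both opposite in sign to Endog. The mitochondrial gate genes had a median of -0.01 over 9 genes. The tBID receptor Mtch2 read 0.28 ± 0.10 (0.269), and the pore regulator Ppif 0.25 ± 0.09 (0.288). None of these genes passed with the block.

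Bbc3 had the smallest p of the members, and the genes whose signals followed it most closely over the 6 arrays were Rasa1, Ilvbl, Zfp281, Col9a3 and Ccdc116, with Pearson correlations from 0.991 to 0.997. They are the closest of 131 genes with a correlation above 0.95, over 6 arrays that share hairpin groups and replicate numbers, so the values are a description of these arrays. All 5 read higher in shAtoh8, which their choice by correlation with Bbc3 had already fixed.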

How the data were processed

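The authors deposited log2 signals per probe set for 6 Affymetrix arrays, made with RMA in the affy package, per the submitters' processing notes. Their versions: not given in the sources used here. RMA quantile-normalises, so a shift of most genes one way would have been removed. Of 45101 probe sets, 64 controls were left out and 45037 tested without a brightness filter. Names came from the platform annotation, and 34945 probe sets had 1 symbol. RefSeq (GRCm38.p6) changed 0 symbols.

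shAtoh8 was compared with shControl by limma 3.58.1 in R 4.3.3 (lmFit, eBayes), with two-sided p-values adjusted by Benjamini-Hochberg over all probe sets, a threshold of 0.05, and 95% intervals that are not adjusted. The code was tested on simulated arrays. The number of arrays limits the precision. Deviations from group means correlated at 0.407, 0.187 and 0.433 between arrays of the same replicate number, and at -0.351 to 0.0292 otherwise, so the numbers were taken to pair the arrays.

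Members, lists and alternatives were chosen with earlier results of these data known. Genes outside the 10 members were named by rule: from each list up to 3 that passed without or with the block, otherwise the 2 with the smallest p, and the 5 genes most correlated with the member of smallest p. Xiap, Birc2, Bad and Bik were named outside the rule, after their values were seen.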

Additional observations from a re-analysis of the deposited data

How the results depend on the processing

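Of 170 values of the 10 genes under 17 alternatives, 167 kept their sign and their side of the threshold. The count of members past the threshold was 0 in all but 1 alternative. When each gene was the mean of its probe sets, Bbc3 passed (0.41, limma adjusted p = 0.0487). That fit had fewer features to adjust over, and the SE of Bbc3 was 0.0805, against 0.0876 in the main fit. Which of these moved Bbc3 was not tested. When probe sets were averaged, Bcl2l1 (-0.029) and Bcl2l11 (-0.0031) turned negative, since their probe sets disagree. With gene means Casp8 and Endog had their lowest adjusted p, 0.0550 and 0.0541. The replicate block changed no call of a member. Over the 17 alternatives Bcl2 ranged from 0.32 to 0.69, Mcl1 from 0.18 to 0.26, Bbc3 from 0.36 to 0.46, Bid from 0.22 to 0.39, Bak1 from 0.22 to 0.34, Casp8 from -0.39 to -0.31, Endog from -0.47 to -0.33, Pmaip1 from -0.11 to -0.013, Bcl2l1 up to 0.14 and Bcl2l11 up to 0.28.

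The count of all genes past the threshold (210) was 849 with the replicate block, 324 with brighter probe sets alone, 339 with array weights and 459 with gene means, and 0 to 117 with 1 array left out. With the block and without both arrays of replicate 1, 2 or 3, chosen after seeing the data, it was 0, 966 and 0. The count of pathway genes outside the members (1) was 3 with the block, 0 with gene means, 0 without the _s, _x and _a probe sets, and 0 to 1 with 1 array left out. With the block and without both arrays of 1 replicate it was 0, 4 and 0. The causes were not tested. The number of arrays limits all of these.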
